A study of Mus musculus with 4 samples.

Results

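The genes Trim6, Trim34a, Trim5, Trim12a, Trim34b, Trim12c and Trim30a to Trim30d form one array on mouse chromosome 7. The rows of the deposited table that carry a transcript ID and overlap chr7:111365000-111665000 (build mm9) were taken as the array, which gave 8 of the 17576 loci in the table. They were chosen by position and by having a transcript ID; 2 further loci in the window have none. With those 2 included, 1 locus was past 2-fold lower and the median difference given further on was 0.52 in place of 0.81. The values are FPKM, that is fragments scaled for transcript length and library size, so that levels can be compared between loci. The cells were mouse embryonic fibroblasts of the C57BL/6 strain. In every group, controls included, they came from mice with an H3.3-HA knock-in, in which a tagged H3.3 cDNA stands at the H3f3b locus. Naive cells and cells pretreated with interferon were each given interferon-beta at 100 U/ml for 1 h, and 1 library of each state was compared. The 2 groups at 0 h were not analysed here, so induction by interferon within a state was not measured. The labels do not give the length of the pretreatment, the interval after it or the number of cultures. The sample descriptions name scTSS-seq where the series title names RNA-Seq, and the values were read as RNA-seq. Each group is 1 library, so values come without replicate error and differences without a test across samples.

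Trim proteins carry a RING domain, which gives ubiquitin ligase activity, followed by a B-box and a coiled coil. Most of those encoded in this array end in a SPRY domain, the part that recognises the target. Primate TRIM5 is known as a restriction factor that binds the capsid of incoming retroviruses. The mouse has no single counterpart: Trim5, Trim12 and Trim30 genes arose by duplication and are its relatives, beside Trim6 and Trim34. Trim30a has been described as a brake on Toll-like receptor signalling, and Trim6 as an enzyme that makes ubiquitin chains used in interferon signalling. Type I interferon acts through the ISGF3 complex, which includes Stat2 and Irf9 and binds the interferon-stimulated response element (ISRE).

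The table gives transcript IDs and no symbols. Names were therefore assigned where the length of a locus and its distances to neighbouring loci matched those of 1 annotated gene, with lengths within 20 bp or 2%, whichever was larger. Names outside the array rest on the same limits. In this way 4 of the 8 loci were named. The Trim6 and Trim30b loci had the annotated length to the base (16358 bp and 14503 bp), and the Trim30a and Trim30d loci (56168 bp and 37835 bp) differed from it by 1 bp each. The other 4 loci are all listed with the same span of 108902 bp, from 111392971 to 111501872, between Trim6 and Trim30b. The genes annotated between those neighbours are Trim34a and Trim34b on the plus strand, Trim5, Trim12a and Trim12c on the minus strand, and some small or antisense RNAs. The distance from the start of Trim34a to the end of Trim12c is 108906 bp. By their serial numbers, which separated the strands at 178 of 179 reference loci on this chromosome, XLOC_023753 and XLOC_023754 lie on the plus strand and XLOC_025012 and XLOC_025013 on the minus strand. Serial order of the main transcript IDs follows position at the named loci. Between Trim6 and Trim30b it runs XLOC_023753, XLOC_025012, XLOC_023754, XLOC_025013, and the genes run Trim34a, Trim5, Trim12a, Trim34b, Trim12c. By this order alone XLOC_023753 would hold Trim34a, XLOC_025012 Trim5 and Trim12a, and XLOC_025013 Trim12c. XLOC_023754 would hold Trim34b or the antisense RNA before it. This was not tested, so which of these genes each of the 4 loci holds was not settled. No named locus was found for Trim30c.

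The promoters are shown to describe which genes of the array have an ISRE match, and their part in the values was not tested. RefSeq promoters (GRCm38.p6, from 250 bases before to 50 bases after the start) were found for all 10 genes, as 11 entries. They were searched on both strands for the ISRE core GAAANNGAAA, which reads TTTCNNTTTC on the other strand. At least 1 match was present in 6 of the 10 genes. By entries this was 7 of 11, against 3.44% of all 32851 mouse promoter entries of that length. The shares over all mouse promoters count entries and not genes. The 6 genes were Trim34a, Trim5, Trim12a, Trim12c, Trim30a and Trim30d. Several of their stretches are near copies of each other, as given below, so the matches are not separate occurrences. Trim6, Trim34b, Trim30b and Trim30c had no match in this window. The GAS core TTCNNNGAA, an element best known from responses to interferon-gamma, was present in 1 of the 10, Trim30c, against 8.30% of all entries. That entry has no ISRE match, so the motifs did not overlap. A match describes letters and not binding.

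Around the core, 10 bases on either side are given for each gene, 5′ to 3′ on the strand of the gene, with the core in capitals and positions in GRCm38.p6. For Trim30c, which has no match, the capitals mark the bases aligned to the core of Trim30a.
Trim30a, first start (chr7:104465210-104465239, minus strand): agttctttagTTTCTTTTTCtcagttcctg
Trim30a, second start (chr7:104446104-104446133, minus strand): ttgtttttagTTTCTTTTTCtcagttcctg
Trim30d (chr7:104507871-104507900, minus strand): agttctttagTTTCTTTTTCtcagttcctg
Trim30c, stretch most like that of Trim30a (chr7:104400896-104400925, minus strand): agttctgtggTTCCTTTTTCtcagttccac
Trim5 (chr7:104288136-104288165, minus strand): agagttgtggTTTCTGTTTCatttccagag
Trim12a (chr7:104315466-104315495, minus strand): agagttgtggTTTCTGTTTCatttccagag
Trim12c (chr7:104353359-104353388, minus strand): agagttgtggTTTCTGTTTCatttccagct
Trim34a (chr7:104244457-104244486, plus strand): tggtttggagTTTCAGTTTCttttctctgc
These 30 bases were identical in Trim30a (first start) and Trim30d and identical in Trim5 and Trim12a, while Trim12c shared 28 of them with Trim5. The second start of Trim30a shared 26 of 30 with Trim30d. Between the first Trim30a stretch and the Trim5 stretch 15 of 30 were the same. Trim30c shared 25 of 30 with Trim30a, and its core differed by the substitution T3C, counted from 1 at the 5′ end of the Trim30a core as printed. The core began 36 bases before the first and 2 bases after the second start of Trim30a. It began 41 bases before the start in Trim30d, 49 before it in Trim5 and 29 before it in Trim12c. In Trim34a and Trim12a it began 10 bases after the annotated start.

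For Trim30a and Trim30d, the named loci whose promoters have an ISRE match, the 250 bases before the start are given whole. The Trim30a stretch is that of its first start (chr7:104465194-104465443, minus strand, GRCm38.p6). The Trim30d stretch is chr7:104507850-104508099, on the same strand and build. The second start of Trim30a was not compared over this length.
Trim30a: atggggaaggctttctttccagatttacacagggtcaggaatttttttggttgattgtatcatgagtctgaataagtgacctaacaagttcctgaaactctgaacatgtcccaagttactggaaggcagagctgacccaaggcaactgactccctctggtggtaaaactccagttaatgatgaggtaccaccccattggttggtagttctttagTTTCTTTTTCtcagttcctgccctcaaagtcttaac
Trim30d: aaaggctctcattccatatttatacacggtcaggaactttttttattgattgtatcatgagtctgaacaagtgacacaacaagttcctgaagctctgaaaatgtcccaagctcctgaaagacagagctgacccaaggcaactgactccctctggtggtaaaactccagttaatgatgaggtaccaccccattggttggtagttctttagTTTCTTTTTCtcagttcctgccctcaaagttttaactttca
Laid side by side at the core without gaps, 226 of 245 bases (92.2%) were identical, including a run of 118 bases without a difference around the core.

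Trim30a had the largest difference of the array. Trim30a (XLOC_025015, from 111557540 to 111613707) had a level of 16.5 FPKM in the naive library and 92.7 FPKM in the pretreated library, 5.63-fold higher. The log2 ratio was 2.49 with a standard error of 0.225. In bulk RNA a difference in the number of cells of a type and a difference in RNA per cell cannot be told apart. The standard error is the deposited ratio divided by the authors' deposited test statistic; it covers the reads of the 2 libraries under their model and no variation between cultures. Trim30a was called higher in the authors' deposited table, which lists its q-value as 0. On the scale of log2(FPKM + 1), on which all loci were compared, the difference was 2.42, which ranked 64 among 9227 loci with a transcript ID and a mean of at least 1 FPKM. In naive cells 71.4% of these loci had a lower level than Trim30a, and in pretreated cells 92.1%.

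Trim30d (XLOC_025016), the adjoining locus from 111618529 to 111656363, moved less. Its level was 12.1 FPKM in naive cells and 21.8 FPKM after pretreatment, 1.80-fold higher, with a log2 ratio of 0.85 and a standard error of 0.297. The authors' deposited table called it higher, at a q-value of 0.0334. Trim30a stood at 1.36 times the level of Trim30d in naive and at 4.25 times its level in pretreated cells. The 95% intervals of the fold that the implied errors give, 4.14 to 7.64 for Trim30a and 1.20 to 2.69 for Trim30d, did not overlap. They leave out variation between cultures, and the difference between the 2 genes was not tested.

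Trim30b (XLOC_025014, from 111503896 to 111518398) was nearly silent in both libraries, at 0.0215 FPKM in naive cells and 0.0762 FPKM after pretreatment. Its log2 ratio of 1.83 had a standard error of 1.48. For comparison, 1 read against 1 read gives a standard error of 2.04, so these values rest on very few reads. The authors did not test it. The pseudogene Trim30e-ps1, just beyond Trim30d and outside the array as defined, was also low, at 0.148 FPKM in naive cells and 0.166 FPKM after pretreatment.

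**Figure D1:**
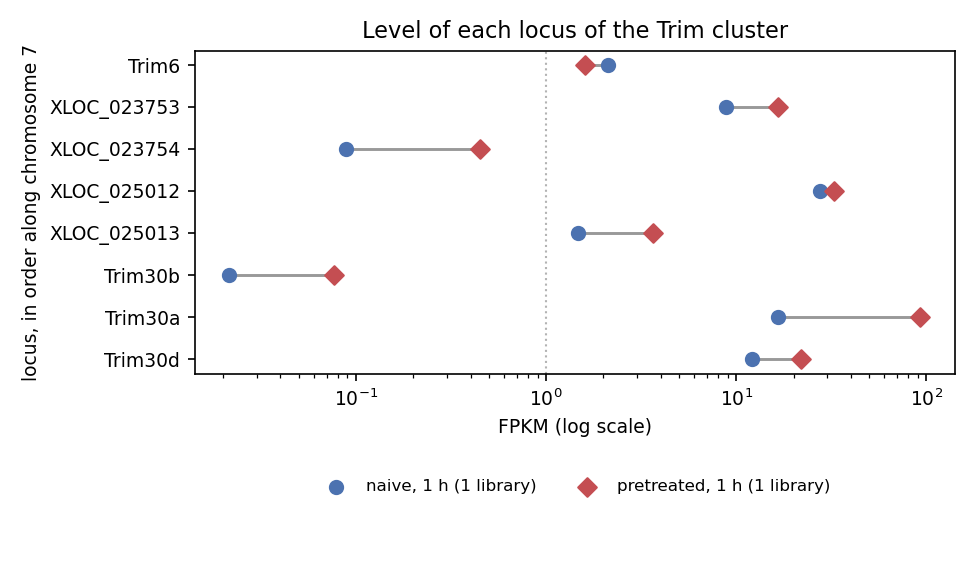
FPKM (log scale) of each of the 8 loci in order along the chromosome, with 1 naive library (circles) and 1 pretreated library (diamonds) and a dotted line at 1 FPKM. Trim30a spans the widest gap among loci above 1 FPKM, from 16.5 to 92.7, and Trim6 is the locus with a lower pretreated value.

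The 4 loci between Trim6 and Trim30b differed among themselves. On the plus strand, where Trim34a and Trim34b lie, XLOC_023753 (6 transcript IDs) had 8.85 FPKM in naive cells and 16.5 FPKM after pretreatment. That is 1.87-fold higher, with a log2 ratio of 0.90, a standard error of 0.187 and a q-value of 6.23e-05 in the authors' deposited table. XLOC_023754 (1 transcript ID) had 0.0888 FPKM in naive cells and 0.451 FPKM after pretreatment. It was not tested by the authors, and its log2 ratio of 2.35 had a standard error of 1.43. The plus strand thus held 1 locus of moderate level called higher and 1 at the limit of detection.

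On the minus strand, where Trim5, Trim12a and Trim12c lie, XLOC_025012 (4 transcript IDs) had the highest naive level of the array. It stood at 27.4 FPKM in naive cells and 32.8 FPKM after pretreatment, a log2 ratio of 0.26 with a standard error of 0.290. The authors' deposited table did not call it, at a q-value of 0.594, and the 95% interval of the ratio that this error gives runs from 0.807-fold to 1.78-fold. Its neighbour XLOC_025013 (2 transcript IDs) had 1.47 FPKM in naive cells and 3.63 FPKM after pretreatment. That is 2.48-fold higher, with a log2 ratio of 1.31 and a standard error of 0.287. The authors' deposited table called it higher at a q-value of 0.000197. On the scale of log2(FPKM + 1) its difference was 0.91, under 2-fold, since the added 1 weighs on low levels. These 2 loci of the same strand therefore had a 2.48-fold and a 1.20-fold ratio at levels that differed widely.

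Trim6 (XLOC_023752, from 111367309 to 111383666), at the edge of the array, was the exception in direction. Its level was 2.11 FPKM in naive cells and 1.59 FPKM after pretreatment, 1.32-fold lower, with a log2 ratio of -0.40 and a standard error of 0.486. The authors' deposited table did not call it, at a q-value of 0.625. The 95% interval of the ratio runs from 0.391-fold to 1.46-fold, which includes no difference.

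**Figure D2:**
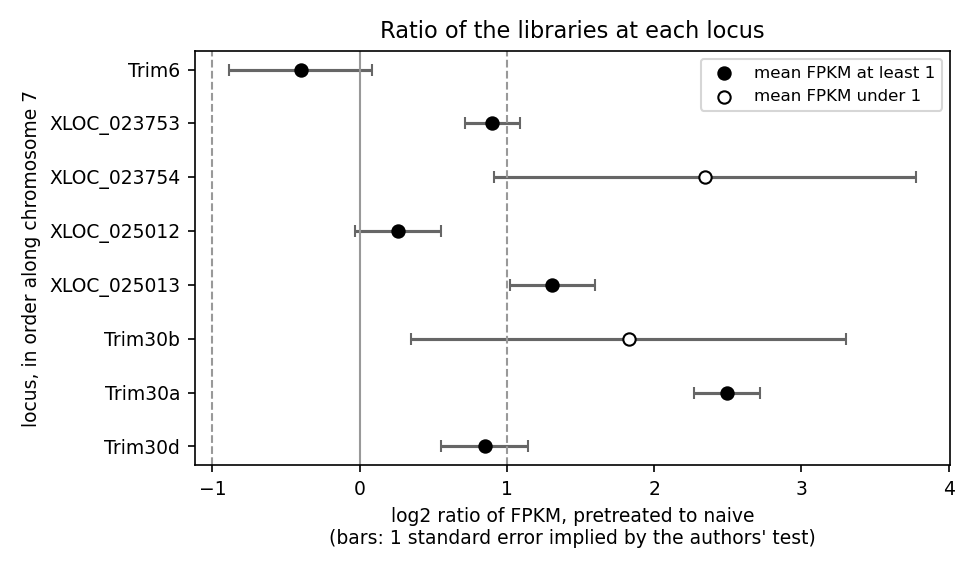
Log2 ratio of pretreated to naive FPKM for the 8 loci, with bars of 1 standard error implied by the authors' test, filled points for a mean of at least 1 FPKM and dashed lines at 2-fold. Trim30a lies at 2.49, Trim6 lies below 0, and the open points of XLOC_023754 and Trim30b carry the widest bars.

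Of the 8 loci, 7 were higher and 1 was lower in pretreated cells, at any size. XLOC_023754 and Trim30b, counted among the 7, were under 1 FPKM and were not tested by the authors. The share of all loci higher at any size was not counted, and the median difference of all compared loci was -0.16. A mean of at least 1 FPKM over the 2 libraries was reached by 6 of the 8 loci, of which 5 were higher. On the log2(FPKM + 1) scale Trim30a was the 1 locus of these 6 past 2-fold higher, and 0 were past 2-fold lower. The background was 2.83% of 10228 loci on the higher side (289 loci) and 7.12% on the lower side (728 loci); among the 9227 loci with a transcript ID, 2.41% were higher. Centred on the median of all compared loci, -0.16, these counts were 423 and 527, and XLOC_025013 joined Trim30a past 2-fold. The median difference was 0.81 over the 6 loci, against -0.13 over the 9227. The authors' deposited table tested 6 of the 8 loci and called 4 higher and 0 lower, where it called 3.91% of 13388 tested loci higher. The share of tested loci called lower was not counted, so the 0 is given without a background. These calls compare the reads of 2 libraries and not the conditions.

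**Figure D3:**
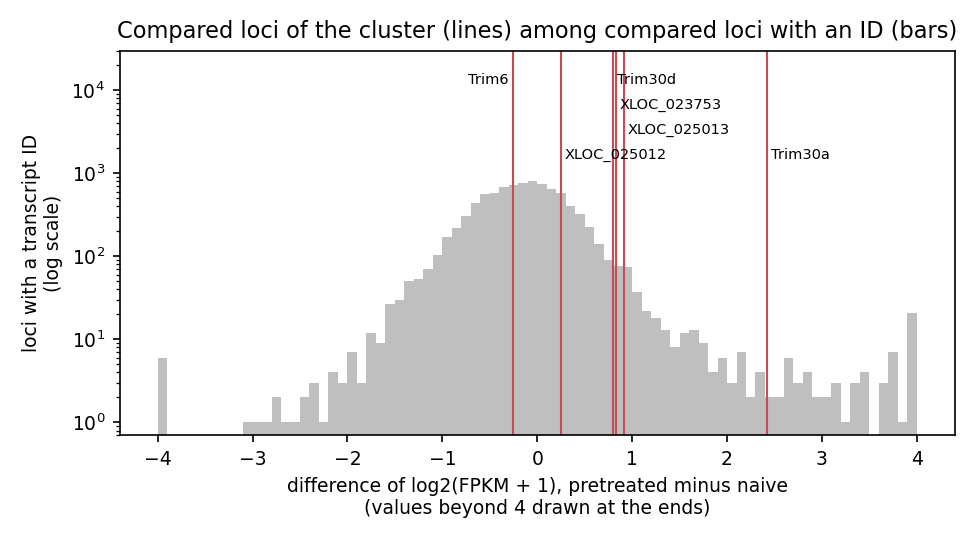
Histogram (log count axis) of the difference of log2(FPKM + 1), pretreated minus naive, over 9227 loci with a transcript ID and a mean of at least 1 FPKM, with lines at the 6 loci of the array. Trim30a lies at 2.42 in the upper tail, Trim30d, XLOC_023753 and XLOC_025013 between 0.80 and 0.91, and Trim6 near the centre at -0.26.

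The summed level of the array was 68.5 FPKM in naive cells and 169.6 FPKM after pretreatment, a ratio of 2.47. Trim30a made up 24.04% of the naive and 54.7% of the pretreated sum. Without it the sums were 52.1 and 76.9 FPKM, a ratio of 1.48. XLOC_025012 made up 39.99% of the naive sum and 19.3% of the pretreated sum. The order of levels in naive cells was XLOC_025012, Trim30a, Trim30d and XLOC_023753, followed by Trim6 and XLOC_025013. In pretreated cells Trim30a came first and XLOC_025013 stood above Trim6.

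Similar sequence limits how firmly reads can be assigned to the single genes. Of all 50-base words in the annotated transcripts of Trim34a, 59.7% also occurred in transcripts of another gene, and of Trim34b 56.8%. The shares were 36.6% for Trim5, 33.7% for Trim12c and 10.5% for Trim12a. These counts include any other gene on either strand, also one that overlaps at the same position. Counting only genes of the array and Trim30e-ps1, the shares were 39.8% for Trim34a and 56.8% for Trim34b. They were then 29.5% for Trim5, 28.7% for Trim12c and 7.86% for Trim12a. Against any other gene, shares were lower for the Trim30 genes, at 7.49% for Trim30d, 5.98% for Trim30a, 1.48% for Trim30b and 0.660% for Trim30c, and 1.50% for Trim6. Trim34a and Trim34b shared most with each other, Trim5 and Trim12c with each other, and Trim30a and Trim30d with each other. Words of 36 bases gave higher shares, of 66.1% for Trim34a and 9.20% for Trim30a. The read length and the treatment of reads with several matches are not given in the sources used here. The values of the 4 loci in the shared span may therefore be less certain than those of Trim30a. This was not tested, and which gene each of the 4 holds is not settled.

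**Figure D4:**
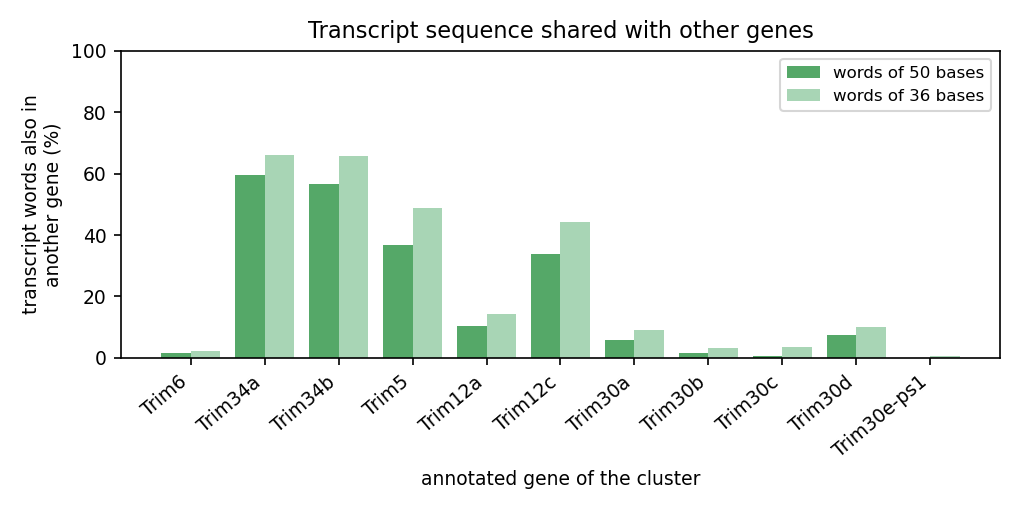
Share (%) of the distinct 50-base and 36-base words in the annotated transcripts of each gene that also occur in transcripts of another gene. Trim34a and Trim34b exceed 50% at both word lengths, and the Trim30 genes and Trim6 stay at or below 10.1%.

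The neighbours of the array had small differences or very low levels. Within 1 Mb on either side, 18 loci carried a transcript ID, and 14 of them had a mean under 1 FPKM, with no value above 0.411 FPKM. Several of these matched olfactory receptor genes, which are expressed in the nose, and 1 matched Hbb-y, an embryonic globin. The 4 above it differed by between -0.50 and 0.24 on the log2(FPKM + 1) scale, with a median of -0.29, and 0 were past 2-fold in either direction or called by the authors. They included Usp17la, a deubiquitinase, at 3.44 FPKM in naive cells and 2.13 FPKM after pretreatment, and Cavin3, a component of caveolae, at 3.44 and 4.25 FPKM. With 2.83% of all compared loci past 2-fold higher and 7.12% past 2-fold lower, a count of 0 among 4 is close to the background. The same holds for the calls, with 3.91% of tested loci called higher. Most of the 14 low neighbours were not tested by the authors. No test of the array against its neighbours was run.

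**Figure D5:**
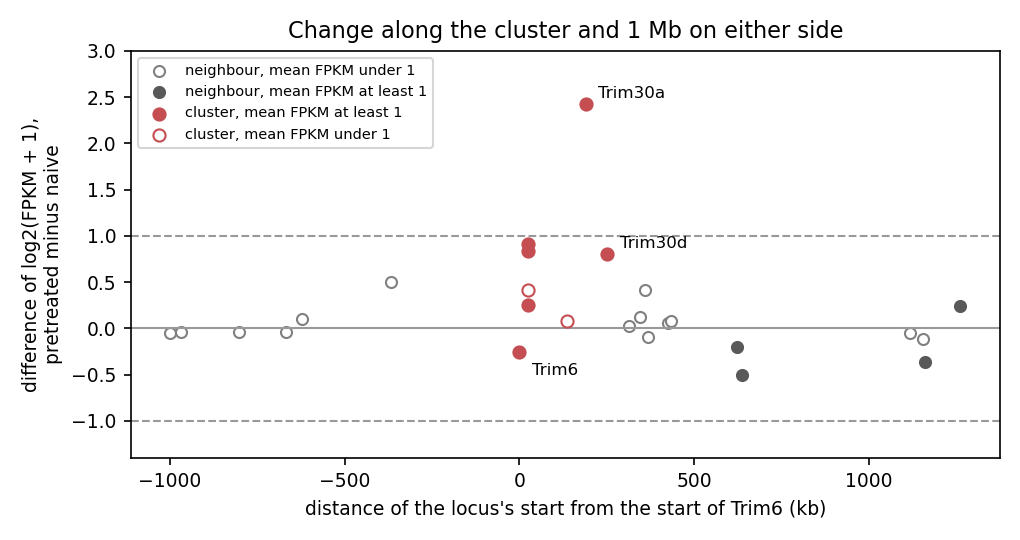
Difference of log2(FPKM + 1), pretreated minus naive, against the distance of each locus from the start of Trim6 (kb), for the 8 loci of the array and 18 neighbours, with open points for a mean under 1 FPKM and dashed lines at 2-fold. All neighbours lie between the dashed lines, and Trim30a alone lies above the upper one.

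Genes of the interferon signal served as a reference for the size of these values. Usp18, which shuts down the interferon receptor, was nearest to Trim30a in ratio, at 184 FPKM in naive cells and 1034 FPKM after pretreatment, 5.63-fold higher. Irf7, the factor that amplifies interferon production, had 13.2 and 179 FPKM, 13.6-fold higher. Stat2 (1.76-fold) and Irf9 (1.89-fold), both parts of ISGF3, had ratios near those of Trim30d (1.80-fold) and XLOC_023753 (1.87-fold). Irf1, which is induced early by interferon, was 555 FPKM in naive cells and 263 FPKM after pretreatment and was not called. Usp18, Irf7, Stat2 and Irf9 were called higher in the authors' deposited table. The receptor gene Ifnar1 was called lower there, at 10.5 and 6.17 FPKM. The other receptor gene, Ifnar2, had 5.13 and 5.38 FPKM, and the receptor kinase gene Tyk2 had 1.72 and 1.94 FPKM; neither was called. Socs1, an inhibitor of the signal, was under 1 FPKM in both libraries, at 0.983 and 0.333 FPKM.

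Other Trim genes linked to interferon lie outside the array. Of 7 listed, 4 were named and compared, and 0 were past 2-fold or called. Over all compared loci 2.83% were past 2-fold higher and 7.12% past 2-fold lower, and 3.91% of tested loci were called higher. A count of 0 among 4 is close to this background. Trim21, a cytosolic antibody receptor, had 2.01 FPKM in naive cells and 3.14 FPKM after pretreatment, Trim26 had 7.55 and 10.7 FPKM, and Trim25, an activator of the RNA sensor RIG-I, had 2.59 and 3.07 FPKM. Trim68, which like Trim21 lies on the chromosome of the array, had 1.28 and 1.13 FPKM. By difference on the log2(FPKM + 1) scale alone, the loci most like Trim30a, over the 2 libraries, were XLOC_002234 on chromosome 10 and XLOC_021267 on chromosome 6. XLOC_002234 had 48.5 and 258 FPKM with a difference of 2.39, and the authors' deposited table called it higher. XLOC_021267 is listed at 0 in naive and has 4.17 FPKM in pretreated cells. It reached the mean of 1 FPKM through the pretreated library only and was not called.

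Fibroblast markers were present in both libraries. Of 10 fibroblast markers listed, 8 were named; Col1a1 had 3255 FPKM in naive cells and 1164 FPKM after pretreatment, Vim had 917 and 704 FPKM, and Pdgfrb 45.0 and 47.8 FPKM, while Thy1 and Lum were under 1 FPKM in both. The 6 compared fibroblast markers had a median difference of -0.60 on the log2(FPKM + 1) scale, and their part in the values of the array was not tested. Csf1r (0.0479 and 0.0168 FPKM), the 1 leukocyte marker of 6 that was named, and Pecam1 (0.0629 and 0.0204 FPKM), the 1 endothelial marker of 3, were near 0. Of 4 epithelial markers 2 were named: Krt18 was listed at 0 in naive and at 0.0940 FPKM in pretreated cells, and Cdh1 had 1.30 and 1.33 FPKM. Read counts are unknown, but the relative depth could be read from 54 untested loci whose implied error was that of 1 read against 1 read: 1 pretreated read was worth 2.03 naive reads (a median of 1.02 on the log2 scale), so low values were less precise in the pretreated library.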

How the data were processed

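RNA of 2 libraries, naive and pretreated MEFs at 1 h, was compared. The authors deposited FPKM per locus with a p-value, a q-value, a log2 fold change (a placeholder where a value is 0) and a test statistic, a score. Per the submitters' processing notes, TopHat and Cufflinks 1.2.1 were used on mm9; the columns are those of a Cuffdiff table, per the file headers. Filters, annotation and scaling between libraries are not given in the sources used here. The deposited p-values equal the two-sided normal tail of the deposited score within 2.86e-06, from which standard errors were taken.

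Differences of log2(FPKM + 1) were taken over loci with a mean of at least 1 FPKM, leaving out those of status FAIL or HIDATA, and counted past 2-fold. Starts were raised by 1. Names came from GENCODE M21 and RefSeq (GRCm38), in a step chosen after seeing the data: lengths within 20 bp or 2% (the larger), like distances to neighbours and the same strand named 9528 of 15883 loci with an ID, and no position was carried between builds. A further 73 candidate matches lay on the other strand and were dropped. By rule, every member was described, and outside the array up to 2 loci with the difference nearest to that of the most changed member. Members and lists were chosen with earlier results of these data known; the lists were to be used only if a table paired IDs with symbols, and the length matching took its place. Of the listed interferon genes, 1 is not reported here. The counting was tested on simulated data. Python 3.11.15, numpy 2.4.6, pandas 2.3.3 and scipy 1.17.1 were used.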

Additional observations from a re-analysis of the deposited data

How the results depend on the processing

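Trim30a was past 2-fold under each alternative to that count, 4-fold included. XLOC_025013 also passed 2-fold, making 2 loci, with a pseudocount of 0.1, after centring on the median and with the deposited ratio without a pseudocount (added after seeing the data). The count past 2-fold lower was 0 except with loci lacking a transcript ID, when it was 1, and the median was then 0.52; it was also 0.52 with 1 locus kept of the shared span, against 0.81. Over all loci, a pseudocount of 0.1 gave 465 higher and 1175 lower, a minimum of 5 FPKM 176 and 452, 4-fold 99 and 143, and the ratio alone 481 and 1132; with a transcript ID 391 were lower. Of 24 values of single loci under other settings, 20 moved by less than the implied standard error, 4 by more and 0 changed sign; these were XLOC_025013 (1.25 with a pseudocount of 0.1 and 1.31 as a ratio, against 0.91), XLOC_023754 and Trim30b. A q-value under 0.01 kept 3 of the 4 calls, without Trim30d.

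No paired analysis was possible because there is 1 library in each state, and for the same reason none was left out. Variation between cultures was not measured.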

Other observations

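The window also held 2 loci without a transcript ID, between Trim30b and Trim30a. XLOC_025424, of 543 bp, had 1.49 FPKM in naive cells and 0.842 FPKM after pretreatment. XLOC_025425, of 454 bp, had 1.81 FPKM in naive cells and 0.230 FPKM after pretreatment, a log2 ratio of -2.98 with a standard error of 1.52. Neither was called in the authors' deposited table, at q-values of 0.522 and 0.176. Trim30c is the gene annotated between Trim30b and Trim30a; whether these 2 loci belong to it was not tested.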
